A study of Mus musculus with 42 samples.

Results

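The genes described here encode the machinery that copies DNA once in each cell cycle. The set holds 36 mouse genes in 7 roles: origin licensing, helicase activation, polymerases and primase, the sliding clamp and its loader, single-strand binding and fragment joining, nucleotide supply, and the copying of chromatin at the fork. The members were listed by name for these roles, and a mean of at least 10 in each deposited table was required. All 36 were found in both tables and all met that minimum, out of 47643 genes in the tables and 12086 with a mean of at least 10 over all libraries. The libraries were made from macrophages of young C57BL/6 mice of 2 to 3 months and of aged C57BL/6 mice of 18 to 20 months. The labels do not name the tissue and list no allele or treatment for either age. Cells were collected at zeitgeber times (ZT, hours of the light and dark cycle) 0, 4, 8, 12, 16, 20 and 24. There were 3 libraries for each age and time, 42 in 14 groups, so each age had 21. Messenger RNA was measured by QuantSeq, which counts reads at the 3′ ends of transcripts, so that gene length does not enter the values.

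Replication is prepared in the G1 phase, when Cdc6 and Cdt1 help to load the helicase ring of Mcm2, Mcm3, Mcm4, Mcm5, Mcm6 and Mcm7 onto origins. At the start of S phase Cdc45 and the GINS complex join the ring, polymerase alpha and its primase lay down primers, and polymerases delta and epsilon extend them behind the sliding clamp Pcna. Many of these genes are known targets of E2F transcription factors, which the retinoblastoma family holds in check in resting cells. Most tissue macrophages are resting, and a small share of them divides to maintain the population.

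Total reads per library ran from 7433159 to 13574542 in young cells (median 9847012) and from 4864402 to 15587030 in aged cells (median 8159784). The macrophage markers Adgre1, Csf1r and Cd68 were above 0 in every library. Over the 8 macrophage markers the summed level was 222331 to 334929 rescaled reads in young cells and 178334 to 315082 in aged cells. Messenger RNA of B cell markers was present as well, and 8 of 8 were higher in aged cells. Their sum was 4796 to 8888 in young and 4693 to 18941 in aged libraries. The labels do not say whether the 3 libraries of a group came from separate animals. The p-values therefore measure only the spread between these libraries, which may be technical. Each age was deposited in a table of its own, so that a batch shared by all libraries of one age cannot be told apart from age.

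Messenger RNA of the replication genes was lower in aged macrophages, and this held in each of the 7 roles. Averaged over the 7 times, 32 of 36 members fell at an adjusted p under 0.05 (limma, Benjamini-Hochberg over all 12086 genes), against 11.7% of all genes tested. Not 1 member rose at an adjusted p under 0.05, also with edgeR and DESeq2, against 12% of all genes (limma). At an unadjusted p under 0.05 the count was also 0 (limma), against 2085 of 12086 genes. The fitted difference was below 0 for all 36, with a median of −0.73 on the log2(value + 1) scale, beside 0.00 over all genes tested. The scaling of the libraries centres the typical gene near 0, so the 0.00 was largely set by it. Among the 32, the young level was 1.18 to 2.37 times the aged level, and for 8 it was at least 2-fold. In 27 of 36 members the fitted difference was below 0 at each of the 7 times, as it was in 8.87% of all genes. In bulk samples such as these, fewer cells of a type and less RNA per cell cannot be told apart.

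Summed over the 36 members, young libraries held 9707 to 18771 rescaled reads (median 11767) and aged libraries 4975 to 11544 (median 8000). As a share of all reads this was 0.109% to 0.215% in young and 0.0551% to 0.128% in aged libraries. The ranges of both ages overlapped, since the highest aged library lay above the lowest young ones. Counted gene by gene over all times, 0 of 36 members separated all 21 aged from all 21 young libraries, as did 0.0248% of all genes.

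**Figure D1:**
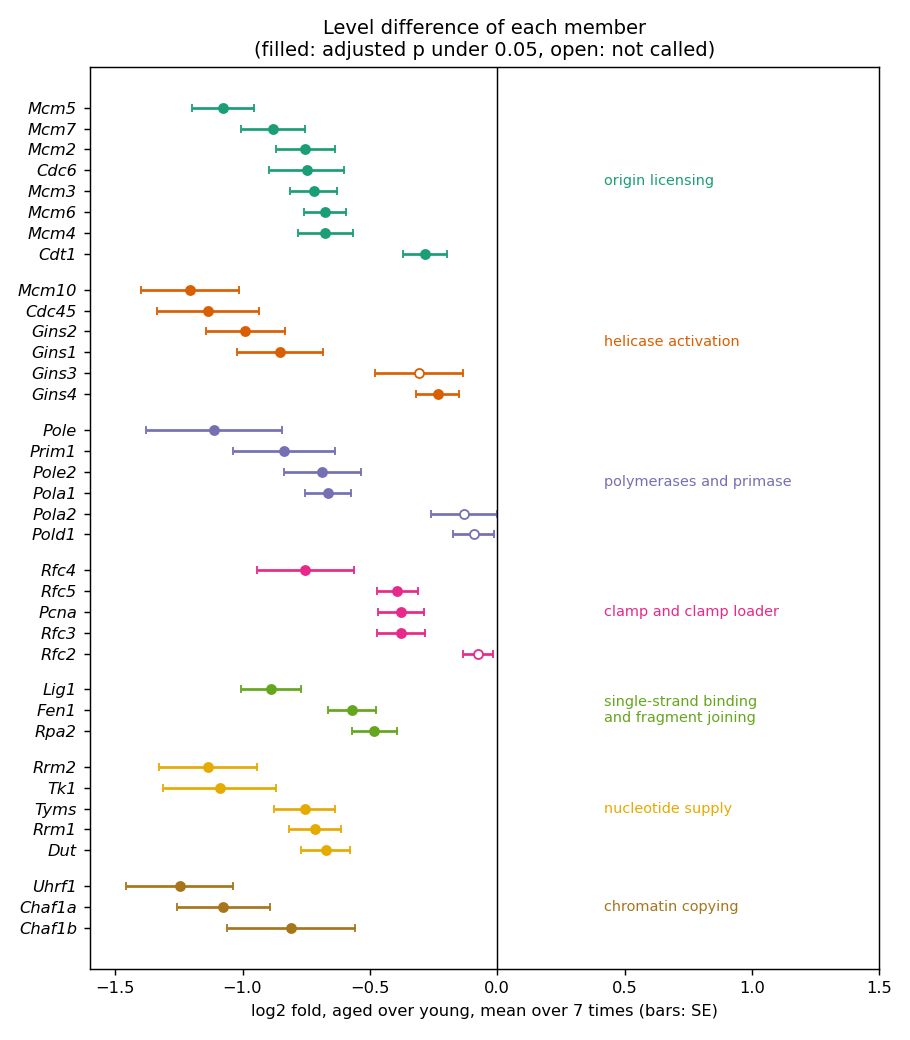
Fitted difference between ages for the 36 members, ordered by role; the horizontal axis is aged minus young in log2(value + 1), averaged over the 7 times, bars are standard errors, and filled points passed an adjusted p under 0.05. All 36 points lie below 0, from −1.25 for Uhrf1 to −0.08 for Rfc2, and the 4 open points are Gins3, Pola2, Pold1 and Rfc2.

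Messenger RNA of the origin licensing genes was lower in aged cells throughout. All 8 members passed the test, with a median difference of −0.73. The ring subunit Mcm5 (ENSMUSG00000005410, chr8:75109569-75128439, plus strand, GRCm38) had the lowest adjusted p of all members. Its level was 334 to 848 rescaled reads in young libraries (median 438) and 95.6 to 390.1 in aged libraries (median 228). All 21 aged libraries lay below the young median, and 17 of them below every young library. The difference was −1.08 ± 0.12 (SE, adjusted p = 1.06e-08), a young level 2.11 times the aged one.

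The ring subunit Mcm6 (ENSMUSG00000026355, chr1:128331590-128359664, minus strand) ran from 664 to 1426 in young libraries (median 855) and from 361 to 849.7 in aged libraries (median 570.4). All 21 aged libraries were below the young median and 16 below every young library, a difference of −0.68 ± 0.08 (SE, adjusted p = 2.90e-08). Mcm3 (ENSMUSG00000041859, chr1:20802968-20820312, minus strand) ran from 694 to 1596 in young (median 926) and from 317 to 1049.8 in aged libraries (median 559.9). Again 16 aged libraries lay below every young one, and the difference was −0.72 ± 0.09 (SE, adjusted p = 7.04e-08).

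Among the other ring subunits, Mcm7 (ENSMUSG00000029730, chr5:138164583-138172422, minus strand) fell by 0.88 ± 0.13 (SE, adjusted p = 9.65e-07). It had 495 to 1449 reads in young libraries (median 699) and 178 to 803 in aged libraries (median 441), with 15 aged libraries below every young one. The last bases of Mcm7 face Cops6 on the opposite strand, and the counting strand is not stated in the sources used here, so reads of the pair cannot be told apart. Mcm2 (ENSMUSG00000002870, chr6:88883474-88898780, minus strand) had 295 to 983 reads in young libraries (median 468) and 134 to 484 in aged libraries (median 298), a difference of −0.75 ± 0.12 (SE, adjusted p = 3.51e-06). Mcm4 (ENSMUSG00000022673, chr16:15623897-15637400, minus strand) had 835 to 1883 reads in young (median 1084) and 387 to 1104 in aged libraries (median 660.1), a difference of −0.67 ± 0.11 (SE, adjusted p = 5.04e-06). For both genes 20 of 21 aged libraries were below the young median.

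Both loading factors fell. Cdc6, the ATPase that recruits the ring to the origin complex, fell by 0.75 ± 0.15 (SE, adjusted p = 0.000143), from a young median of 158 to an aged median of 90.3. Cdt1, its partner in loading, fell by 0.28 ± 0.09 (SE, adjusted p = 0.0138), from 400.0 to 333. Without the ZT4 libraries the Cdt1 difference was −0.20 (adjusted p = 0.146), a setting added after the data were seen.

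The promoter sequences of the 3 members with the lowest adjusted p, and of Pold1, which did not pass, show the letters that E2F factors are known to bind. Each line is 300 bases of the gene's own strand, from 250 before the start to 50 after it, from RefSeq on GRCm38.p6. Capitals mark the letters TTTCCCGC, TTTCGCGC, TTTGCCGC or TTTGGCGC on either strand.
Mcm5, chr8:75109259-75109558, plus strand: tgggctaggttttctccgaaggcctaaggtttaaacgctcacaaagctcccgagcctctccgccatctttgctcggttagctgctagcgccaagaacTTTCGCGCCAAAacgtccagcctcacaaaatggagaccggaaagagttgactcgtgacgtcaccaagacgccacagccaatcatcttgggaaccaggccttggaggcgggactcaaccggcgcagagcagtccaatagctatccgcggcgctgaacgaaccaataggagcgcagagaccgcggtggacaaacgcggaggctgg
Mcm6, chr1:128359656-128359955, minus strand: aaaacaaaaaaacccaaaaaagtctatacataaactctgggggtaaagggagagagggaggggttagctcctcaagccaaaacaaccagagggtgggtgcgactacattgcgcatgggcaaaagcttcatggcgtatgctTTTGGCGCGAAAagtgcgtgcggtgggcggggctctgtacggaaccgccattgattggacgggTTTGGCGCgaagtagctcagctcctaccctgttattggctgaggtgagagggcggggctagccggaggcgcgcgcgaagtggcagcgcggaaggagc
Mcm3, chr1:20820263-20820562, minus strand: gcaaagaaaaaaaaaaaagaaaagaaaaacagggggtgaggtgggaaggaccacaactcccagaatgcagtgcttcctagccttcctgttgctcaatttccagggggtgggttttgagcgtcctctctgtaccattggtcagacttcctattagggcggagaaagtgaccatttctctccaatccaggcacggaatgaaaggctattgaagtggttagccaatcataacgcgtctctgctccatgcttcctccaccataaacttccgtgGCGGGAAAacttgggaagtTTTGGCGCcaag
Pold1, chr7:44548766-44549065, minus strand: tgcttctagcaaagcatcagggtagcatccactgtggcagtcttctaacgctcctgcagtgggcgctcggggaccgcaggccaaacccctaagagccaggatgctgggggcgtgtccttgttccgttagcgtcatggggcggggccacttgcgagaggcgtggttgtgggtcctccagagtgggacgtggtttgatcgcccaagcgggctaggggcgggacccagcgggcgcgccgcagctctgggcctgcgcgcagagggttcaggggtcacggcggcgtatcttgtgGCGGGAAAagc
The Mcm5 window held a pair of overlapping matches, 153 and 149 bases before the start. The Mcm6 window held an overlapping pair 110 and 106 bases before the start and a further match 47 bases before it. In Mcm3 the matches lay 19 and 38 bases after the start, and in Pold1 the match lay 39 bases after it. So the letters were present both in genes that fell and in 1 that did not pass.

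RefSeq entries were matched for 30 of 36 members. The E2F letters were in the window of 13 of those 30 (43.3%), compared with 2.6% of 27025 genes in the promoter table and 4.86% of the 9018 tested genes that matched. They were in 11 of 27 members that fell, 40.7%, and in 2 of 3 that did not pass, Gins3 and Pold1. The 13 were Cdc6, Cdt1, Mcm3, Mcm5, Mcm6, Mcm7, Gins3, Pola1, Pold1, Pole2, Rfc3, Lig1 and Uhrf1. The letters CCAAT were in 17 of 30 members (56.7%), beside 42.9% of tested genes. The letters TTTGAA or TTCGAA, the cell cycle homology region known from mitotic promoters, were in 6 of 30 (20%) beside 16.6%. The circadian E-box CACGTG was in 5 of 30 members (16.7%) beside 12.1%. All motifs were searched on both strands, any entry of a gene with several was counted, and a match is a run of letters and not a measured site.

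Helicase activation transcripts fell for 5 of 6 members, with a median of −0.92. Mcm10 (ENSMUSG00000026669, chr2:4989714-5012791, minus strand), which helps to start unwinding, had 61.9 to 221 reads in young libraries (median 129) and 17.5 to 135 in aged libraries (median 47.5). Its difference was −1.21 ± 0.19 (SE, adjusted p = 5.48e-06), with 12 aged libraries below every young one. Cdc45, the factor that joins the ring to form the active helicase, fell by 1.13 ± 0.20 (SE, adjusted p = 3.09e-05), from a young median of 101 to an aged median of 61.8.

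Of the GINS subunits, which complete the helicase, Gins1, Gins2 and Gins4 passed the test and Gins3 did not. Gins2 (ENSMUSG00000031821, chr8:120578633-120589304, minus strand) had 63.3 to 362 reads in young (median 191) and 44.8 to 199.8 in aged libraries (median 97.5), a difference of −0.99 ± 0.16 (SE, adjusted p = 4.44e-06). Only 3 aged libraries lay below every young one, although 20 of 21 were below the young median. Its 3′ end overlaps Gse1 on the opposite strand. Gse1 had 26561 reads over all libraries where Gins2 had 6922, and reads of the pair cannot be told apart. Gins1 fell by 0.85 ± 0.17 (SE, adjusted p = 0.000155) from a low level, a young median of 33.1 and an aged median of 20.4. Gins3 was measured at a young median of 63.2 and an aged median of 49.7 and did not pass (−0.31 ± 0.17, SE, adjusted p = 0.215).

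Gins4 passed narrowly, at −0.23 ± 0.08 (SE, adjusted p = 0.0372), with medians of 179 in young and 156 in aged libraries. Leaving out any 1 of 14 libraries ended this call, with adjusted p from 0.0514 to 0.0709. These were young ZT0 replicate 2, ZT4 replicate 2, ZT8 replicates 1 and 2, ZT12 replicates 2 and 3 and ZT16 replicates 2 and 3, and aged ZT0 replicate 3, ZT4 replicate 3, ZT12 replicate 1, ZT16 replicate 1, ZT20 replicate 2 and ZT24 replicate 1.

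Polymerase and primase transcripts fell for 4 of 6 members, with a median of −0.68. Pola1 (ENSMUSG00000006678, chrX:93304767-93632155, minus strand), the catalytic subunit of polymerase alpha, had 296 to 612 reads in young libraries (median 407) and 168 to 386 in aged libraries (median 262). All 21 aged libraries were below the young median, and the difference was −0.66 ± 0.09 (SE, adjusted p = 2.32e-07). Pola2, the second subunit of that enzyme, had medians of 84.2 and 72.2 and did not pass (−0.13 ± 0.13, SE, adjusted p = 0.518).

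Prim1, the catalytic primase subunit, fell by 0.84 ± 0.20 (SE, adjusted p = 0.00159). Pole, the catalytic subunit of polymerase epsilon, fell by 1.11 ± 0.27 (SE, adjusted p = 0.00165) and was the least abundant member, with a young median of 39.4 and an aged median of 18.6. Its second subunit Pole2 fell by 0.69 ± 0.15 (SE, adjusted p = 0.000571). Pold1, the catalytic subunit of polymerase delta, which also works in DNA repair, had medians of 180.2 and 168 and did not pass (−0.09 ± 0.08, SE, adjusted p = 0.441). The catalytic subunits of alpha and epsilon thus passed and that of delta did not, and the difference between these genes was not tested.

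The clamp and its loader showed the smallest differences of the 7 roles, a median of −0.38, with 4 of 5 members passing. Pcna, the sliding clamp that holds polymerases on DNA, had 262 to 478 reads in young libraries (median 375) and 181 to 400.1 in aged libraries (median 298). It fell by 0.38 ± 0.09 (SE, adjusted p = 0.00133), with 6 aged libraries below every young one. Of the loader subunits, Rfc5 fell by 0.39 ± 0.08 (SE, adjusted p = 0.000300) and Rfc3 by 0.38 ± 0.09 (SE, adjusted p = 0.00220). Rfc4 fell by 0.75 ± 0.19 (SE, adjusted p = 0.00269) from a young median of 42.4 reads to an aged median of 29.9. Rfc2 had nearly equal medians, 507 in young and 504 in aged libraries, and did not pass (−0.08 ± 0.06, SE, adjusted p = 0.392). The 3′ ends of Rfc2, Rfc4 and Rfc5 overlap Lat2, Eif4a2 and Wsb2 on the opposite strand, and the levels of these pairs cannot be told apart. Lat2 had 177733 reads over all libraries where Rfc2 had 21899, and Eif4a2 had 16149 where Rfc4 had 1673.

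Transcripts for single-strand binding and fragment joining fell for 3 of 3 members, with a median of −0.57. Lig1 (ENSMUSG00000056394, chr7:13277283-13311433, plus strand), the ligase that seals the fragments of the lagging strand, was the most abundant member. It had 1042 to 2759.8 reads in young libraries (median 1514) and 433 to 1464 in aged libraries (median 839.9). All 21 aged libraries were below the young median and 16 below every young library, a difference of −0.89 ± 0.12 (SE, adjusted p = 1.78e-07). Fen1, the nuclease that trims the fragments, fell by 0.57 ± 0.09 (SE, adjusted p = 1.12e-05). Rpa2, a subunit of the protein that coats single strands, fell by 0.48 ± 0.09 (SE, adjusted p = 4.19e-05), from a young median of 535 to an aged median of 408.

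Nucleotide supply transcripts fell for 5 of 5 members, with a median of −0.76. Rrm1 (ENSMUSG00000030978, chr7:102441695-102469771, plus strand), the large subunit of ribonucleotide reductase, had 263 to 629 reads in young libraries (median 425) and 143 to 433 in aged libraries (median 249.9). Its difference was −0.72 ± 0.10 (SE, adjusted p = 7.41e-07). Rrm2, the small subunit, whose RNA is known to be restricted to S phase, fell by 1.14 ± 0.19 (SE, adjusted p = 1.35e-05), from 84.7 to 430.3 in young (median 185) to 24.3 to 218 in aged libraries (median 88.8).

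Dut (ENSMUSG00000027203, chr2:125247190-125258608, plus strand), which keeps uracil out of DNA, had 325 to 763 reads in young (median 463) and 184 to 464 in aged libraries (median 296). It fell by 0.67 ± 0.10 (SE, adjusted p = 8.81e-07), and 15 aged libraries lay below every young one. Tyms, which makes thymidylate, fell by 0.76 ± 0.12 (SE, adjusted p = 5.76e-06), with all 21 aged libraries below the young median of 161. Tk1, which salvages thymidine, fell by 1.09 ± 0.22 (SE, adjusted p = 0.000224), from a median of 66.5 to 38.5.

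Chromatin copying transcripts fell for 3 of 3 members and had the largest median of the 7 roles, −1.08. Uhrf1, which brings maintenance methylation to the fork, showed the largest fall of all 36, −1.25 ± 0.21 (SE, adjusted p = 1.37e-05). It had 74.7 to 224 reads in young libraries (median 128) and 6.07 to 139.6 in aged libraries (median 58.3), so the spread among aged libraries was wide. Chaf1a, the large subunit of the histone chaperone CAF-1, fell by 1.08 ± 0.18 (SE, adjusted p = 1.53e-05), with 15 aged libraries below every young one. The 3′ end of Chaf1a overlaps Ubxn6 on the opposite strand. Ubxn6 had 20009 reads over all libraries where Chaf1a had 5487, and reads of the pair cannot be told apart. Chaf1b, the partner of Chaf1a, fell by 0.81 ± 0.25 (SE, adjusted p = 0.0153), at medians of 38.2 and 24.0.

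**Figure D2:**
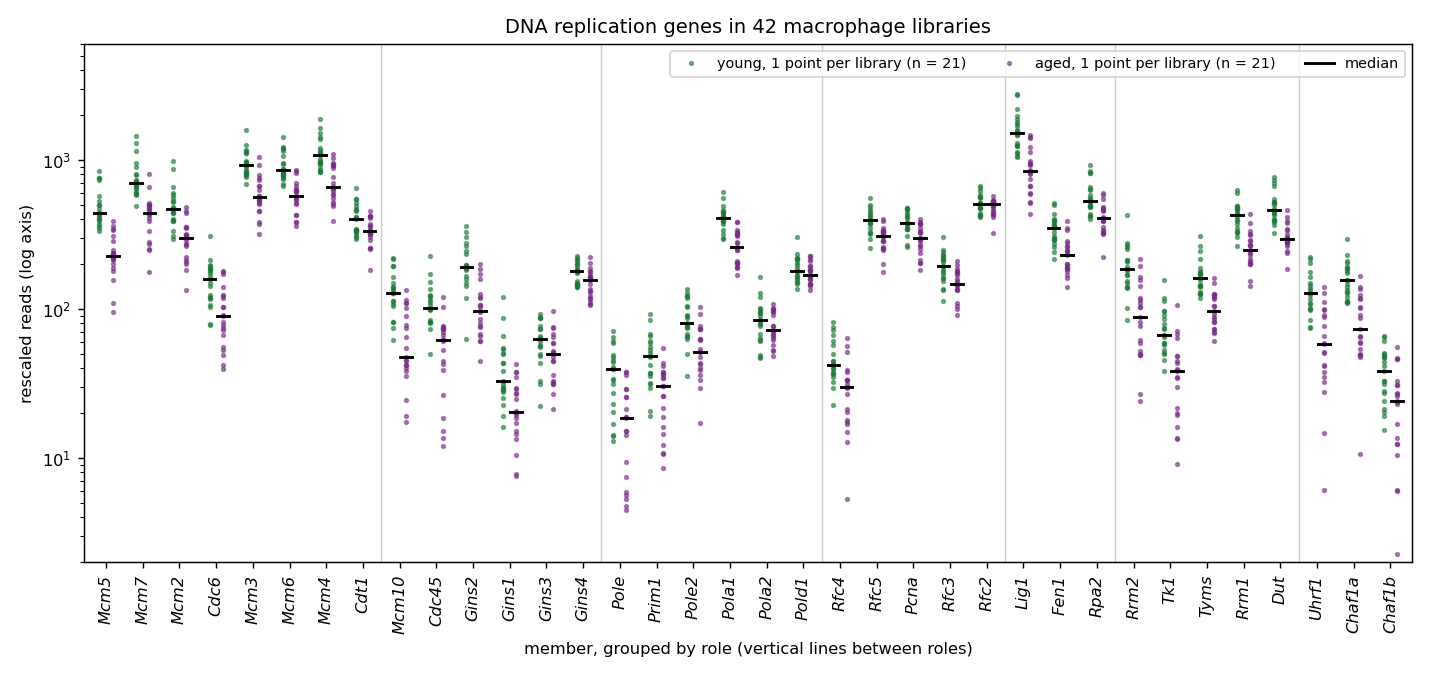
Level of each of the 36 members in the 42 libraries, in rescaled reads on a log axis, with a point for each library, young (n = 21) and aged (n = 21) in separate colours, black bars at the medians and vertical lines between the 7 roles. The aged median is below the young one in every member, nearly level for Rfc2 (507 and 504) and well apart for Mcm5 (438 and 228), and the points of both ages overlap throughout.

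Time by time, the separation of the ages was counted library by library. The 3 aged libraries lay below the 3 young ones for 27 of 36 members at ZT4, 23 at ZT20 and 19 at ZT8, against 8.62%, 9.46% and 9.35% of all genes. The counts were 13 at ZT24, 12 at ZT12, 9 at ZT0 and 8 at ZT16, against 9.39%, 8.36%, 7.73% and 6.42%. For 34 members the groups separated in this way at 1 time or more, as for 34% of all genes, and for 15 at 4 times or more, as for 3.09% of all genes. The reverse, aged above young, was seen once, for Rfc2 at ZT0. The median difference of the members was −1.04 at ZT4, −0.93 at ZT24, −0.78 at ZT8, −0.75 at ZT20, −0.45 at ZT0, −0.44 at ZT12 and −0.39 at ZT16. ZT0 and ZT24 are the same hour of a 24-h cycle, yet their medians were −0.45 and −0.93. The order of the times therefore also holds variation between sets of libraries. Whether the difference between ages changed with time was tested only as a 24-h rhythm.

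With 3 libraries against 3 at each time, 11 members passed at 1 time or more, all lower in aged cells. The counts were 8 at ZT4, 4 at ZT8, 1 at ZT20 and 7 at ZT24, against 0.67%, 2.04%, 0.604% and 1% of all genes lower at those times. At ZT0, ZT12 and ZT16, 8, 5 and 7 members were lower at an unadjusted p under 0.05 (limma). Of all 12086 genes, 647, 677 and 556 were lower in this way. At an adjusted p under 0.05 limma called 0 members at these times, beside 0.298%, 0.86% and 0.281% of all genes called lower. There edgeR also called 0, and DESeq2 called 0, 1 and 0. Not 1 member rose at any time (limma), against 0.496%, 0.678%, 1.98%, 1.22%, 0.778%, 1.05% and 1.09% of all genes from ZT0 to ZT24. At an unadjusted p under 0.05 the count was also 0, against 634, 825, 876, 780, 739, 819 and 811 of 12086 genes. Lig1, Mcm5 and Mcm6 passed at ZT4, ZT8 and ZT24, Gins2 and Pola1 at ZT4 and ZT24, and Mcm3 at ZT4 and ZT20. Gins1 and Rpa2 passed at ZT4, Rrm2 at ZT8, and Cdc45 and Uhrf1 at ZT24.

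Mcm5 shows the pattern in single libraries. At ZT4 its young libraries held 848, 755 and 529 reads and its aged libraries 219, 238 and 247, a difference of −1.57 ± 0.33 (SE, adjusted p = 0.00729). At ZT16 the young libraries held 444, 497 and 737 and the aged 390.1, 309.9 and 179.8. The groups were closer at ZT16, but still did not overlap. At ZT24 the young libraries held 428, 752 and 371 and the aged 109, 157 and 361, so the highest aged library came near the lowest young one. Uhrf1 at ZT24 had the largest difference of any member and time, −2.62 ± 0.55 (SE, adjusted p = 0.00763), with young libraries at 146, 203 and 108 and aged at 6.07, 32.2 and 59.2. At ZT0, the same hour of the cycle, the Uhrf1 difference was −0.77 ± 0.55 (SE, limma, adjusted p = 0.682).

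These counts at each time changed when single libraries were left out. Without young ZT24 replicate 2 or aged ZT24 replicate 1 the count at ZT24 was 0, without aged ZT24 replicate 2 it was 1, without young ZT24 replicate 1 it was 4, and without aged ZT24 replicate 3 it was 21. At ZT4 it was 5 without young replicate 1, 3 without young replicate 2 or aged replicate 1, and 4 without aged replicate 3. At ZT8 it was 2, 1 and 0 without young replicates 1, 2 and 3, 0 without aged replicate 1 or 2, and 10 without aged replicate 3. The count at ZT8 was also 7 without aged ZT0 replicate 1 or 2, 8 without aged ZT24 replicate 1 and 9 without aged ZT24 replicate 3. At ZT20 it was 0 without any 1 of young ZT20 replicates 1 and 2 and aged ZT20 replicates 1 and 2, and 2 without aged ZT4 replicate 2. A single member was called at ZT0 without aged ZT0 replicate 2, at ZT16 without aged ZT16 replicate 1 and at ZT12 without aged ZT24 replicate 3. On simulated data, the comparison at 1 time recovered 5% of genes changed by 0.5 and 54% of genes changed by 1 on the log2 scale.

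**Figure D3:**
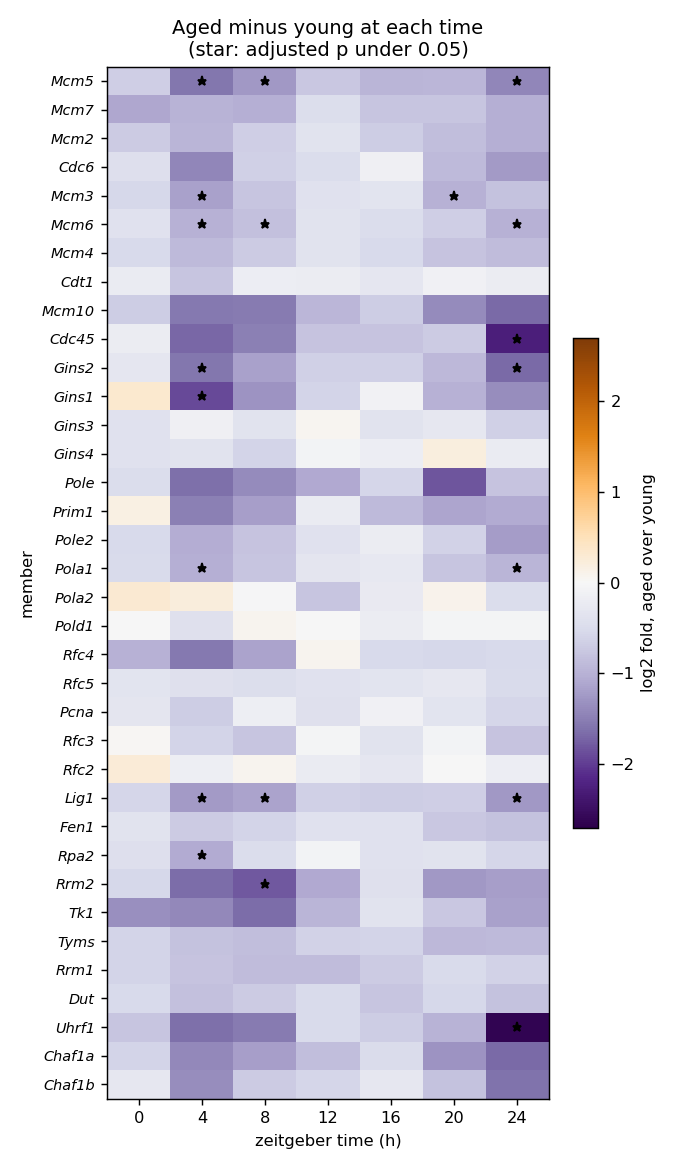
Aged minus young difference of each member (rows, by role) at each ZT (columns, hours), as colour in log2(value + 1), with stars on the 20 gene and time pairs that passed an adjusted p under 0.05. Of 252 cells, 240 are below 0, and the stars lie at ZT4, ZT8, ZT20 and ZT24.

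The sum over all 36 members showed the same separation. In young cells it was 10367 ± 638 at ZT0, 16196 ± 2444 at ZT4, 11592 ± 1083 at ZT8, 12362 ± 561 at ZT12, 13859 ± 4373 at ZT16, 11877 ± 1967 at ZT20 and 12851 ± 3489 at ZT24 (SD, n = 3 each). In aged cells it was 7639 ± 1691, 8239 ± 784, 7089 ± 1449, 9262 ± 1976, 9646 ± 1992, 7727 ± 619 and 7367 ± 3064 at the same times (SD, n = 3 each). The groups of both ages overlapped at ZT16 and ZT24 and not at the other 5 times.

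**Figure D4:**
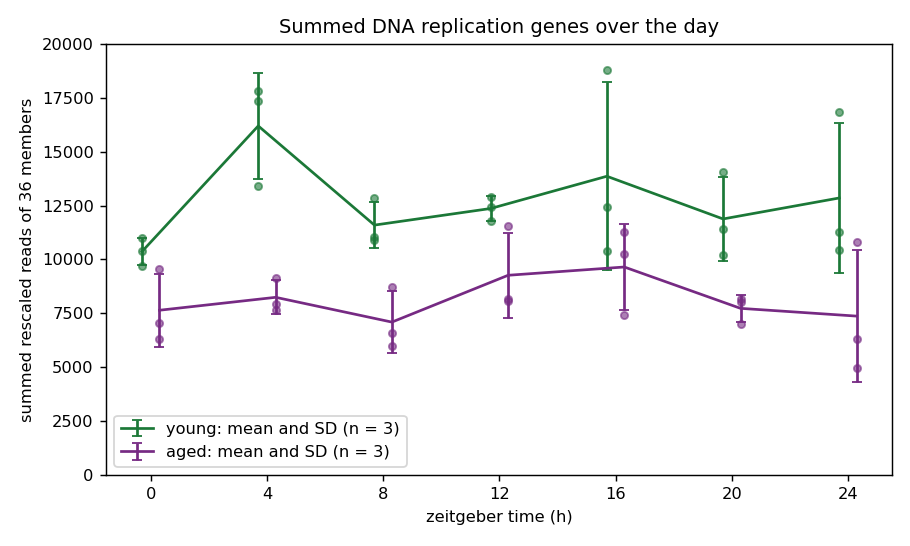
Summed level of the 36 members in rescaled reads (vertical axis) by ZT in hours, with a point for each library, lines through the means and bars for the SD of 3 libraries, young and aged in separate colours. The aged points lie below the young points at every ZT except ZT16 and ZT24, where the ranges overlap.

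In several groups 1 library was the highest or the lowest for most members. Young ZT24 replicate 2 was the highest of its 3 libraries for 32 of 36 members, young ZT16 replicate 3 for 30 and young ZT20 replicate 2 for 29. Young ZT16 replicate 1 was the lowest for 32. In aged cells ZT24 replicate 3 was the highest for 33 members and ZT24 replicate 1 the lowest for 28. Over all genes tested, these 6 libraries held the same place for 32.4% to 35.8% of genes. Aged ZT8 replicate 3 was the highest for 29 members and aged ZT12 replicate 2 for 27, against 29.5% and 33.5% of all genes. Young ZT4 replicate 3 and aged ZT16 replicate 3 were each the lowest for 25, against 36.8% and 36.3%. Some groups were more even. The members' highest value fell in replicates 1, 2 and 3 for 13, 10 and 13 members in young ZT12. The counts were 8, 17 and 11 in aged ZT4 and 14, 7 and 15 in aged ZT20. The mitosis genes stood in the same order in aged ZT24, with sums of 802, 1916 and 6522 in replicates 1, 2 and 3, beside member sums of 4975, 6304 and 10821. Within groups, the SD of the members had a median of 0.40 (young) and 0.46 (aged), against 0.27 and 0.31 over all genes. It was larger in aged cells for 29 of 36 members (80.6%), and for 66.3% of all genes.

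The level of the members did not follow a 24-h rhythm that the test could call. In young cells 0 of 36 members passed the cosine and sine fit (limma, lowest adjusted p = 0.214), while 3.62% of 12113 genes did. At an unadjusted p under 0.05 (17.2% of all genes) there was 1 member, Rfc3, with a peak-to-trough fold of 1.45 and a peak at ZT 6.05. The median fitted fold in young cells was 1.19 for the members and 1.21 for all genes. In aged cells 0 of 36 passed (limma, lowest adjusted p = 0.261), while 0.308% of 12016 genes did. At an unadjusted p under 0.05 (9.01% of all genes) there were 2 members, Rpa2 with a fold of 1.49 and a peak at ZT 13.5, and Cdc6 with a fold of 2.21 and a peak at ZT 16.4. The median fitted fold in aged cells was 1.36 for the members and 1.21 for all genes. A fitted fold cannot fall below 1, and the median SD within aged groups was 0.46 for the members and 0.31 for all genes. The part of this spread in the folds was not tested. edgeR and DESeq2 called 0 members in either age.

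When the 7 times were fitted as separate levels in young cells, with no assumed wave, 1 member passed. This was Mcm6 (adjusted p = 0.0395), whose fitted 24-h wave in young cells had a fold of 1.05 (adjusted p = 0.971), and Mcm3 stood just beyond the threshold (adjusted p = 0.0505). Both were highest at ZT4 in young replicate 1. The rhythm itself differed between ages for 0 of 36 members (limma, also 0 at an unadjusted p under 0.05, and 0 with edgeR and DESeq2) and for 0% of 12086 genes, with 4.09% of all genes at an unadjusted p under 0.05. The lowest member p was that of Pola1, 0.0586 before adjustment and 0.999 after. Simulated rhythms were sized by the log2 distance from mean to peak. On these data the rhythm fit recovered 63% of genes at a size of 0.5 and 84% at 1 in young cells, and 63% and 86% in aged cells. The fit of the rhythm difference recovered 41% and 74%. By the same measure the members' median fitted wave was smaller, 0.128 in young and 0.221 in aged cells. Recovery at such sizes was not simulated, so the fit cannot decide whether waves this small were present.

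Genes that work beside the members were lower in aged cells too, though not all of them. Of 39 other replication genes 24 fell and 1 rose, with a median of −0.33. Dbf4, the activator of the kinase that fires origins, differed by −0.62 (adjusted p = 4.77e-08) and Dna2, a nuclease and helicase of fragment processing, by −0.90 (adjusted p = 1.21e-07). Dnmt1, the maintenance methyltransferase that Uhrf1 brings to DNA, differed by −0.50 (adjusted p = 1.11e-06), and Clspn, a checkpoint mediator at the fork, by −1.46 (adjusted p = 1.28e-06). The gene that rose was Orc5, a subunit of the origin recognition complex (0.27, adjusted p = 0.0118), named after its value was seen.

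Of 27 regulators of the E2F, retinoblastoma and G1/S system 17 fell and 1 rose, with a median of −0.32. E2f1, an activating E2F, differed by −0.74 (adjusted p = 8.28e-07) and E2f8, a repressing one, by −1.20 (adjusted p = 1.27e-06). Ccna2, the cyclin of S phase and G2, differed by −1.50 (adjusted p = 9.69e-07), and Cdc25a, the phosphatase that activates its kinase, by −0.47 (adjusted p = 0.000169). The gene that rose was Cdkn1b, the cyclin-dependent kinase inhibitor p27 (0.24, adjusted p = 0.0205), also named after its value was seen. Of the other such inhibitors listed, Cdkn1a and Cdkn2c fell (−0.32, adjusted p = 0.0105, and −0.55, adjusted p = 0.000236). Cdkn2d did not pass (−0.06, adjusted p = 0.653). Of the other E2F genes, E2f6 and E2f7 fell (−0.32, adjusted p = 0.0129, and −1.49, adjusted p = 0.000671). E2f2, E2f3, E2f4 and E2f5 did not pass, at 0.10, 0.05, −0.08 and −0.09 (adjusted p = 0.519, 0.666, 0.678 and 0.722), so 4 of 8 E2F genes fell.

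All 20 mitosis genes fell, with a median of −1.33. Their differences reached −1.69 in Cenpf, a kinetochore protein (adjusted p = 6.11e-08), and −1.63 in Birc5, the survivin of the chromosomal passenger complex (adjusted p = 2.76e-08). Aurka, a spindle kinase, differed by −1.40 (adjusted p = 2.05e-08) and Nusap1, a spindle protein, by −1.52 (adjusted p = 9.03e-08). Their summed level was 4183 to 14307 in young libraries (median 7761) and 802 to 6522 in aged libraries (median 3478). In young cells 6 of 20 mitosis genes passed the rhythm test, and in aged cells 0 did (limma), with 16 and 2 at an unadjusted p under 0.05. Of all genes 3.62% in young and 0.308% in aged cells passed, with 17.2% and 9.01% at an unadjusted p under 0.05. The median fitted fold of the mitosis genes was 1.71 in young and 1.76 in aged cells. How the members and the mitosis genes differ in size or rhythm was not tested. The mitosis promoters held the E2F letters in 1 of 17 matched genes (5.88%) and the cell cycle homology letters in 13 of 17 (76.5%), beside 13 and 6 of the 30 members.

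**Figure D5:**
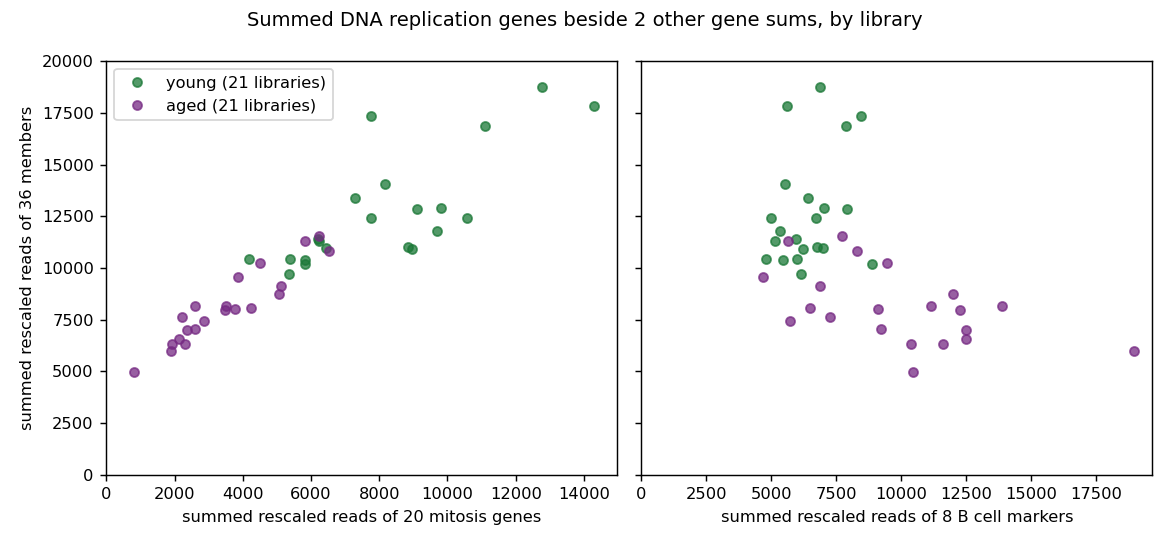
Summed rescaled reads of the 36 members (vertical axis) in each of the 42 libraries, against the sum of 20 mitosis genes (left) and of 8 B cell markers (right), with young and aged libraries in separate colours. The aged library lowest in the members (4975) is also lowest in the mitosis genes (802), and the aged library highest in B cell markers (18941) is among the lowest in the members.

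Markers of several cell types differed with age beside the members. In these lists and those of the next paragraph, counts stand beside 23.7% of all genes passing in either direction. Of all genes 12% were higher and 11.7% lower. Of 8 B cell markers 8 rose (median 0.58), among them Ms4a1 (0.61) and Cd79b (0.59). Of 7 T cell markers 4 rose and 0 fell (limma, 1 at an unadjusted p under 0.05), and their sum was 81.7 to 269 in young and 76.0 to 1306 in aged libraries. Of 5 monocyte markers 2 fell, Ccr2 by 0.92 and F13a1 by 1.03, and 1 rose, Plac8 by 0.44. Their sum was 7478 to 11907 in young and 5445 to 16108 in aged libraries. Of 3 dendritic cell markers 2 fell, Cd209a by 1.20 and Zbtb46 by 0.42, and their list was at 291 to 615 in young and 134 to 425 in aged libraries. The dendritic markers Xcr1 and Siglech were at 0 in 22 and 35 of 42 libraries. Of 8 macrophage markers Lyz2 fell by 0.25, Cd68 fell by 0.18 and Cd14 rose by 0.18.

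The remaining lists moved in both directions. Of 8 genes known from resident peritoneal macrophages 3 rose, Cxcl13 by 2.59, Selp by 0.23 and Tgfb2 by 0.20, and 2 fell, Timd4 by 0.37 and Icam2 by 0.16. Their sum was 52163 to 73421 in young and 47085 to 99318 in aged libraries. Of 4 plasma cell markers Mzb1 rose by 0.79, Jchain rose by 1.32 and Sdc1 fell by 1.45, with sums of 1750.3 to 2907 in young and 1817 to 8174 in aged libraries. Of 4 neutrophil markers S100a8 rose by 0.79 and Retnlg fell by 1.62, with sums of 243 to 589 and 310.3 to 852, and Ly6g was at 0 in 40 of 42 libraries. Of 7 mast cell markers Tpsb2 fell by 0.47, with sums of 539.8 to 1933 and 379 to 1943. Dcn, a matrix gene of fibroblasts and the 1 gene of the mesothelial and fibroblast list with enough reads to test, rose by 3.35, and the list's sum was 0 to 25.3 in young and 20.7 to 111 in aged libraries. Neither of the 2 erythroid markers tested passed, with sums of 0 to 2967 in young and 0.747 to 119.9 in aged libraries. The mitochondrial share of reads was 1.39% to 1.88% in young and 1.35% to 2.27% in aged libraries. Of the lists in this paragraph only the mast cell markers entered a fit of the members, together with other lists, as given next. The part of the other lists here and of the mitochondrial share in the members' difference was not tested.

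Each marker score was a mean of log2(value + 1) over genes of a list. When the B cell, T cell and mast cell scores entered the fit as covariates, 27 of the 32 members kept the call, beside 6.35% of all genes lower. Gins1, Gins4, Pole2, Pcna and Chaf1b lost it (adjusted p = 0.064, 0.458, 0.134, 0.153 and 0.727), while Pold1 and Rfc2 passed (adjusted p = 0.0164 and 0.038). With monocyte and dendritic cell scores added as well, a setting chosen after the data were seen, 11 of the 32 kept the call and Pold1 gained it, beside 3.04% of all genes lower. The 11 were Mcm2, Mcm3, Mcm5, Mcm6, Mcm7, Mcm10, Fen1, Lig1, Rrm1, Dut and Chaf1a. The median difference of the members was then −0.55. Without the aged libraries highest in B cell and in T cell markers, 31 members kept the call. Whether monocyte-derived or other cells carry part of the members' RNA was not tested.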

How the data were processed

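Messenger RNA of macrophages was measured by QuantSeq 3′ end sequencing in 42 libraries. Per the submitters' processing notes, STAR, DESeq2 and the mm10 build were used. Versions, the counting program, its strand setting and the annotation were not given in the sources used here. Deposited signal values are read counts divided by a size factor, in 1 table per age, each normalized by the authors on its own. Whole reads were recovered (100% of values within 0.001 of a whole number), and the libraries of both tables were put on 1 scale by median-of-ratios factors from 11229 genes. All levels here are these rescaled reads.

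Level differences were tested with limma 3.58.1 in R 4.3.3 on log2(value + 1), for genes with a mean of at least 10, with a trend on the mean, 14 group means and Benjamini-Hochberg adjustment over all genes. The level difference is the mean of the 7 aged group means minus that of the 7 young. Rhythm was tested with cosine and sine terms of 24 h in each deposited table, and its difference with age by cosine and sine terms in the rescaled reads. edgeR 4.0.16 and DESeq2 1.42.0 on the recovered reads, other scalings, pseudocounts and filters, array weights, a replicate block, marker scores and left-out libraries were alternatives. Fits were tested on simulated data, with the changed genes drawn from all genes tested. Gene positions are from GENCODE M21 on GRCm38, promoters from RefSeq on GRCm38.p6. The members and lists were chosen with earlier results of these data known. Members are described by role; the 12 of lowest adjusted p are given in most detail, and of each other list the 4 of lowest p. Depth is given as the range of total reads per library, and the precision of each value as the spread between libraries.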

Additional observations from a re-analysis of the deposited data

How the results depend on the processing

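The count of 32 members lower in aged cells was 31 or 32 under each scaling, pseudocount, filter, edgeR, DESeq2 and array weights, 31 or 32 (leaving out 1 library at a time), and 30 to 32 without the libraries of any 1 time. With B cell, T cell and mast cell scores it was 29, with 707 higher and 767 lower among all genes against 1446 and 1417. With monocyte and dendritic scores added, chosen after the data were seen, it was 12, with 397 higher and 368 lower among all genes. Pola2 (0.056, adjusted p = 0.936) and Chaf1b (0.19, adjusted p = 0.862) were then above 0. The cause was not tested. Across all alternatives of single members, 2215 of 2267 values kept direction and side of the threshold, 47 lost and 3 gained the call, and 2 changed sign. The count of 11 members lower at 1 time or more was 18 with DESeq2 and 21 with array weights, and the cause was not tested. Fitting 7 time levels in young cells, with no assumed wave, gave 1 member whose level differed between times. Leaving out 1 library at a time gave 9 to 22 members at 1 time or more, 1334 to 1512 higher and 1304 to 1482 lower among all genes, and 0 to 0 members for a rise, for a rhythm in either age and for a difference in rhythm.

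The labels give each group replicate numbers 1 to 3. With the replicate number as a block, 32 members were lower, 13 at 1 time or more, 0 were rhythmic, and 1435 genes were higher and 1401 lower. The deviations of same-numbered libraries had a mean correlation of −0.00197 over 273 pairs (range −0.263 to 0.19, 10 over 0.1). Of 42 libraries, 11 agreed best with their own number. No pairing by number was seen, and this check cannot exclude a small effect shared by a number.

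Depth limits the rarer members most: Pole had 3 to 76 reads per library, and Chaf1b 3 to 96. Each age was deposited in its own table, and levels between ages rest on the joint rescaling.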
